A study of Mus musculus with 17 samples.

Results

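RNA of 10 adipocyte genes, Cfd, Adipoq, Plin1, Cidec, Cidea, Lep, Retn, Fabp4, Pparg and Ucp1, was followed through 17 whole kidney libraries of a mouse model of TFE3-rearranged renal cell carcinoma, out of 35971 genes with a match. The 10 genes were selected on their values in these same libraries, among them the PRCC‐TFE3 KI kidneys, so every comparison that uses the KI kidneys is given as a description and with no p for a single gene. The other comparisons use libraries of the same series, so their p-values may carry that selection too. Each mouse carried the lsl‐PRCC‐TFE3 allele at Rosa26, a fusion gene that stays silent until Cre recombinase removes a stop cassette. The groups were 4 kidneys without Cre (Cre(−)), 3 PRCC‐TFE3 KI kidneys, 4 PRCC‐TFE3 KI/Hif1α KO kidneys, 3 PRCC‐TFE3 KI/Hif2α KO kidneys and 3 PRCC‐TFE3 KI/Hif1α/Hif2α DKO kidneys. Cre was driven by the Cadherin 16 promoter (Ksp‐Cre), which acts in kidney epithelium and not in fat, so adipocytes of these mice are not a cell type in which the fusion gene or the Hif deletions are switched on by design. Of the Cre(−) mice, replicates 1 and 2 also carried the Hif1α flox allele on both chromosomes and replicates 3 and 4 carried no flox allele. The labels give no age and name no batch. The libraries were numbered nearly group by group, with 1 DKO library between those of the Hif2α KO group, so an effect of library order can hardly be told apart from one of group. Nothing in the labels says how fat around the kidney was handled.

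White adipocytes store triglyceride in 1 large lipid droplet and secrete hormones, whereas brown adipocytes hold many small droplets and burn lipid to make heat through the uncoupling protein UCP1. Fat lies against the kidney in the renal hilum and around the capsule, and in mice this perirenal depot can hold both white and brown adipocytes. In the list, Adipoq (adiponectin), Retn (resistin), Lep (leptin) and Cfd (adipsin, complement factor D) encode secreted adipokines. Plin1 and Cidec encode coat proteins of the white fat droplet, Cidea encodes the related droplet protein of brown fat, Fabp4 encodes a fatty acid carrier that endothelium and macrophages also make, and Pparg encodes the nuclear receptor that directs adipocyte differentiation.

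The promoters of 8 of the 10 genes are in the RefSeq promoter table of GRCm38.p6, in 11 windows since Cidec and Pparg have several starts. A few of them are shown, cut to the 250 bases before the start, because they belong to the white fat hormone, the brown fat uncoupler and the adipocyte form of Pparg that the results below turn on. They lie on the plus strand at chr16:23146286-23146535 for Adipoq, chr8:83290098-83290347 for Ucp1 and chr6:115421816-115422065 for the start of the long form of Pparg. Capitals mark AGGTCA, the hexamer that PPARγ and other nuclear receptors bind, searched on both strands.
Adipoq: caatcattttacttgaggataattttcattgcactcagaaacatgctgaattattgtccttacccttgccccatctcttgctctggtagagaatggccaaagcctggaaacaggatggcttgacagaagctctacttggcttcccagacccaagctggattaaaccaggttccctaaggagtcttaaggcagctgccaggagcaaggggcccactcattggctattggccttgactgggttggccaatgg
Ucp1: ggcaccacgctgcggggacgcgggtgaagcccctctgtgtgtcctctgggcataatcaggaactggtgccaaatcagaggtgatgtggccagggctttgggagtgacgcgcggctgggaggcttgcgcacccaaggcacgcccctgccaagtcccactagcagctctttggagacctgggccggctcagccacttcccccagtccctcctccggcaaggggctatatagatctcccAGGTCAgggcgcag
Pparg, long form: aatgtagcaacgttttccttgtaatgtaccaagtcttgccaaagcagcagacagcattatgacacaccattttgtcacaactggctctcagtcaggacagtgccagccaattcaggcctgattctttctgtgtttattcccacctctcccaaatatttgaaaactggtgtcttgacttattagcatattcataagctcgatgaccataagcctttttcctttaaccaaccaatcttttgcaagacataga
AGGTCA stood in 3 of the 11 windows, those of Ucp1 and of the 2 upstream starts of Pparg, against 14.0% of 32851 promoter windows of the same length. None of the 11 windows held CACGTG, the E-box of the MiT/TFE family to which TFE3 belongs, or ACGTG, the core of the hypoxia response element, which 6.02% and 16.6% of all windows held (CACGTG contains ACGTG). The C/EBP palindrome TTGCGCAA stood in 1 of the 11, that of Lep, against 0.164% of all windows. These letters are a description of short windows and not of binding.

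Library totals ranged from 16504419 to 24668827 counts, at which 3 counts, taken as the smallest amount a library can show, equal 0.117 to 0.206 CPM (counts scaled by the TMM-adjusted library size). The summed level of 7 kidney tubule genes amounted to 16220 to 18844 CPM in Cre(−) kidneys and to 1937 to 7501 CPM in the 13 kidneys with Cre. Between 58.3% and 61.9% of the 17011 genes tested passed 0.05 on the adjusted p (edgeR, quasi-likelihood, Benjamini-Hochberg) in each contrast with Cre(−), so that a single call there is the common case. All 10 adipocyte genes passed the filter on low counts. The 4 contrasts with Cre(−) share the same 4 control kidneys, and the 3 contrasts with KI share the same 3.

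Adipoq, on chromosome 16 from 23146536 to 23158028 (ENSMUSG00000022878.5), stood far higher in 1 library than in all others. In Cre(−) replicates 1 to 4 it stood at 9.87, 0.964, 2.98 and 4.61 CPM, and in KI replicates 1 to 3 at 5.12, 127 and 8.56 CPM. In Hif1α KO kidneys it had 6.03, 23.5, 2.99 and 1.25 CPM, in Hif2α KO kidneys 1.3, 3.94 and 13.1 CPM, and in DKO kidneys 13.3, 1.42 and 8.84 CPM. KI replicate 2 was 18.6 times the mean of the other 2 KI kidneys and 5.43 times the next library, Hif1α KO replicate 2. Leaving KI replicate 2 aside, every group overlapped every other. Since whole kidneys were sequenced, more adipocytes and more RNA per adipocyte cannot be told apart in these values.

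Cfd, on chromosome 10 from 79890853 to 79892655, encodes the protease that starts the alternative complement pathway and is made above all by fat. Its level was 65.1, 2.84, 2.71 and 9.79 CPM without Cre, against 28.3, 1279 and 93.5 CPM in the KI group. In Hif1α KO kidneys Cfd had 34.9, 183, 13.2 and 12.1 CPM, in Hif2α KO kidneys 7.43, 42.3 and 122 CPM, and in DKO kidneys 118, 8.11 and 60.5 CPM. Again KI replicate 2 was the highest, 6.98 times the next library, and replicate 1 was the high kidney of the Cre(−) group. The other 3 Cre(−) kidneys, at 2.71 to 9.79 CPM, overlapped only the lowest kidneys of the Hif2α KO and DKO groups.

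Retn, on chromosome 8 from 3655770 to 3660110, encodes a hormone of mouse white fat and was likewise highest in KI replicate 2. It had 41.5 CPM in KI replicate 2, 8.67 CPM in Hif1α KO replicate 2 and 8.00 CPM in Hif2α KO replicate 3, and between 0.482 and 4.19 CPM in the other 14 libraries. Cidec, on chromosome 6 from 113424634 to 113435760, encodes the protein that fuses lipid droplets in white fat. Its level was 234 CPM in KI replicate 2, 30.8 CPM in Hif1α KO replicate 2, and 21.1 and 20.4 CPM in DKO replicate 1 and Hif2α KO replicate 3. The other 13 libraries ranged from 1.12 CPM in Cre(−) replicate 2 to 19.1 CPM in KI replicate 3.

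Plin1, on chromosome 7 from 79720218 to 79732903, encodes perilipin 1, the gatekeeper of lipolysis on the droplet. In KI kidneys it had 3.45, 56.9 and 0.856 CPM, so that KI replicate 3, which was second in its group for Adipoq, Cfd, Cidec and Retn to replicate 2, was the lowest for Plin1. In Cre(−) kidneys Plin1 had 8.43, 0.642, 2.05 and 2.65 CPM, and in DKO kidneys 10.4, 0.527 and 12.9 CPM. Hif1α KO kidneys lay between 1.37 and 7.79 CPM and Hif2α KO kidneys between 0.778 and 12.4 CPM. Beside KI replicate 2, 4 kidneys of different groups (Cre(−) replicate 1, Hif2α KO replicate 3 and DKO replicates 1 and 3) exceeded 8 CPM.

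Fabp4, on chromosome 3 from 10204088 to 10208576, was at 41.1 CPM or more in every kidney. It ranged from 50.9 to 79.5 CPM in Cre(−) kidneys, with 41.1, 338 and 53.8 CPM in KI kidneys. Hif1α KO kidneys had 104, 155, 72.9 and 62.5 CPM, Hif2α KO kidneys 45.3, 41.2 and 61.6 CPM, and DKO kidneys 101, 56.9 and 121 CPM. KI replicate 2 was 5.40 times the median of all libraries, against 36.6 times for Cfd and 52.3 times for Cidec. The sum of 6 genes of endothelium, which shares Fabp4, came to 293 to 429 CPM in Cre(−) kidneys and to 217 to 316 CPM in the kidneys with Cre, with 265 CPM in KI replicate 2. Their part in the level of Fabp4 was not tested.

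**Figure D1:**
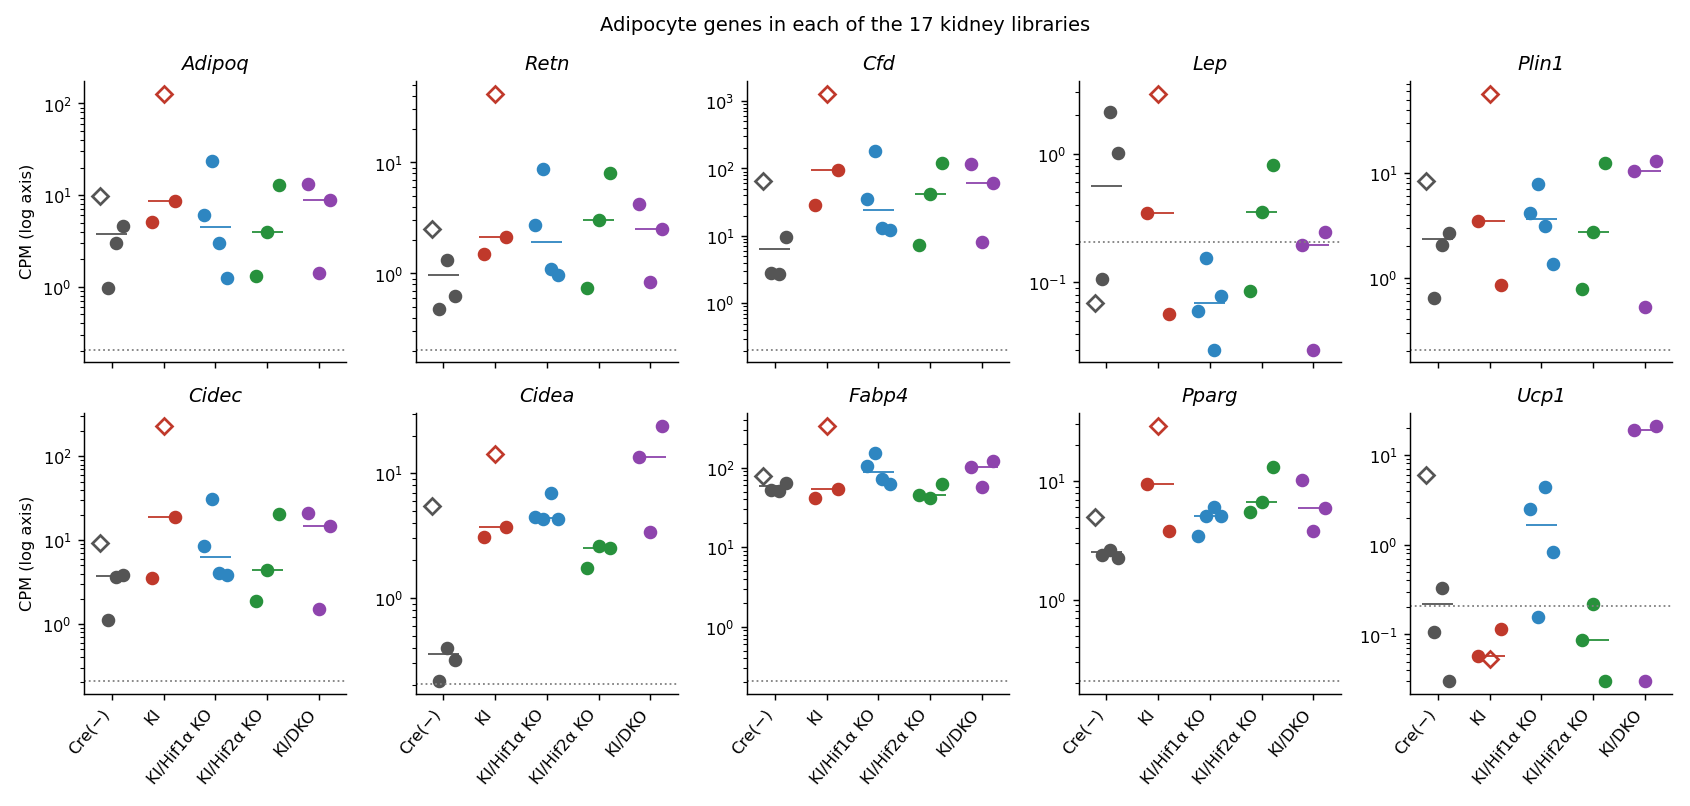
Level of each of the 10 adipocyte genes in each library, in CPM on a log axis, by group; each point is 1 kidney, lines are group medians, open diamonds are KI replicate 2 and Cre(−) replicate 1, the dotted line is 3 counts in the library with the highest such limit (0.206 CPM), and libraries with 0 counts are drawn at the bottom. KI replicate 2 is the highest library for 8 of the 10 genes, whereas DKO replicate 3 is the highest for Cidea and Ucp1.

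Per transcript length, the order of the genes changed between libraries. In KI replicate 2, Cfd stood at 2475 TPM (a unit the authors normalized for transcript length and library total), ahead of Fabp4 at 614 TPM, Cidec at 254 TPM and Adipoq at 165 TPM. Below these were Retn at 80.6 TPM, Plin1 at 42.1 TPM, Pparg at 25.8 TPM, Cidea at 21.4 TPM and Lep at 1.43 TPM, with Ucp1 last at 0.0539 TPM. In Cre(−) kidneys Fabp4 led with 62.2 to 96.8 TPM, and Cfd ranged from 3.68 to 84.4 TPM there. Cfd alone made up 60.3% of the summed CPM of the 10 genes in KI replicate 2 and 50.4% in KI replicate 3, but 3.93% to 11.0% in Cre(−) replicates 2 to 4.

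Lep, on chromosome 6 from 29060220 to 29073877, encodes the satiety hormone leptin and was at or under 3 counts in 9 of the 17 libraries. Its counts were 1, 2, 32 and 16 in Cre(−) kidneys and 6, 54 and 1 in KI kidneys. Hif1α KO kidneys had 1, 3, 0 and 2 counts, Hif2α KO kidneys 2, 8 and 16 counts, and DKO kidneys 4, 0 and 5 counts. Lep was thus highest in KI replicate 2, but next highest in Cre(−) replicate 3, a kidney with only 2.98 CPM of Adipoq and 2.71 CPM of Cfd. In Hif1α KO kidneys Lep fell relative to Cre(−) by 3.37 on the log2 scale (SE 1.32, edgeR adjusted p = 0.0367). With 1 library at a time left out, 12 of 17 fits made that call, with adjusted p from 0.0185 to 0.170, and it was lost without Cre(−) replicate 3 or 4 or without Hif1α KO replicate 1, 3 or 4. The 2 Cre(−) kidneys with 1 and 2 counts were those that carry the Hif1α flox allele and the 2 with 32 and 16 counts those without a flox allele, so flox allele and Lep level cannot be told apart in that group.

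Pparg, on chromosome 6 from 115360951 to 115490399 (ENSMUSG00000000440.12), stood at 5.00, 2.41, 2.65 and 2.27 CPM without Cre, against 9.43, 29.3 and 3.82 CPM in the KI group. Hif1α KO kidneys had 3.47, 5.04, 6.08 and 5.07 CPM, Hif2α KO kidneys 5.53, 6.61 and 13.1 CPM, and DKO kidneys 10.3, 3.79 and 5.91 CPM. Every Hif2α KO kidney lay above every Cre(−) kidney, and in each of the 13 kidneys with Cre the level was above that of Cre(−) replicates 2 to 4. Pparg rose in Hif2α KO kidneys relative to Cre(−), with a log2 fold change of 1.45 (SE 0.55, edgeR adjusted p = 0.0317). The call held in 13 of 17 fits without 1 library (adjusted p from 0.00750 to 0.173), and was lost without Hif2α KO replicate 3, where the log2 fold change was 0.98, or without Cre(−) replicate 2, 3 or 4. In Hif1α KO and DKO kidneys the log2 fold changes of Pparg were 0.68 (SE 0.52, adjusted p = 0.272) and 1.12 (SE 0.55, adjusted p = 0.0951) by the same edgeR test. In the fit without KI replicate 2, whose library enters the spread shared by all groups, the DKO value was 1.12 (SE 0.42, adjusted p = 0.0328 by edgeR), without KI replicate 3 it also passed, and in the former Fabp4 passed in Hif1α KO kidneys at 0.68 (SE 0.28, adjusted p = 0.0485 by edgeR).

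The annotation gives Pparg 7 transcripts, of which 1 codes for the 505-residue PPARγ2, the form that is largely restricted to adipocytes, and 2 code for the 475-residue PPARγ1, which many tissues make. The estimated counts of the long form were 126 in KI replicate 2 but 1.22 and 0.0573 in KI replicates 1 and 3, where all or nearly all of the 164 and 67 Pparg counts went to the short form. In Cre(−) kidneys the long form had 48.2 counts in replicate 1, which is 65.9% of its Pparg counts, and was at or under 3 counts in the other 3. Hif2α KO kidneys had 36.3, 5.05 and 136 long-form counts and DKO kidneys 90.7, 20.4 and 52.7, so that no library of these groups was at or under 3. Hif1α KO kidneys had 24.3 and 53.7 counts in replicates 1 and 4 and none or nearly none in replicates 2 and 3, although replicate 2 was the second highest library for Adipoq. The files give an estimated split of single-end reads between transcripts that share most exons, without an error, so these values carry an uncertainty that cannot be stated here.

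**Figure D2:**
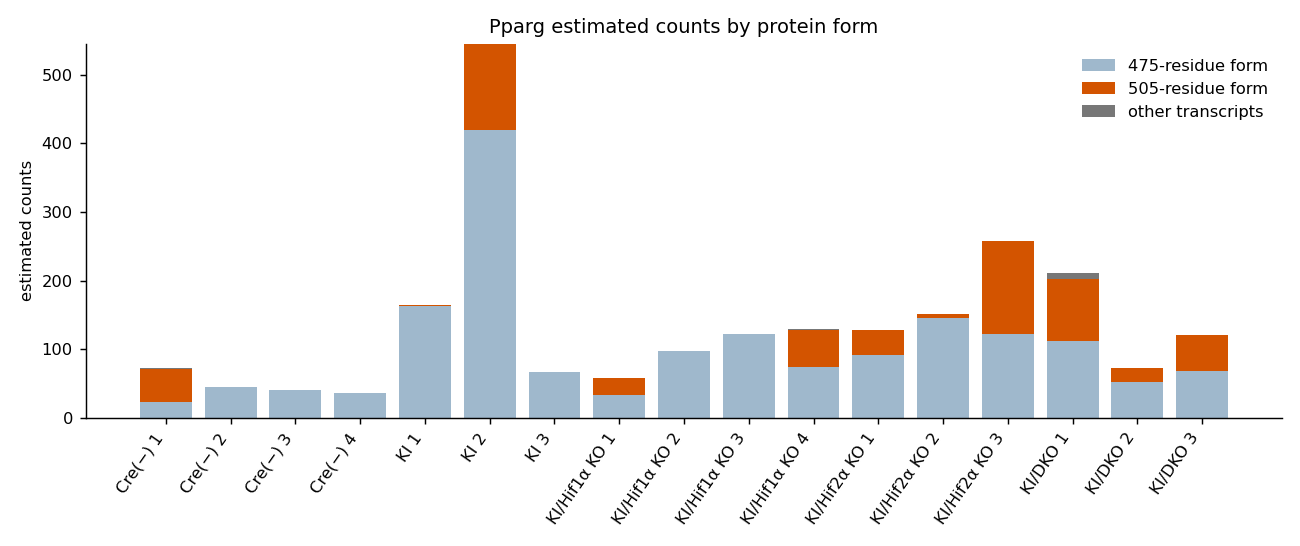
Estimated counts of Pparg in each library (bars start at 0), split into transcripts that code for the 475-residue form, the 505-residue form and other transcripts. The 505-residue form is at 126 counts in KI replicate 2 and at 1.22 or less in the other KI kidneys, and is present in all 6 Hif2α KO and DKO kidneys.

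Ucp1, on chromosome 8 from 83290352 to 83298452 (ENSMUSG00000031710.4), encodes the uncoupling protein that defines brown and beige adipocytes. Its counts were 87, 2, 5 and 0 in Cre(−) kidneys, 1, 1 and 2 in KI kidneys, and 42, 3, 88 and 21 in Hif1α KO kidneys. Hif2α KO kidneys had 2, 5 and 0 counts, and DKO kidneys 383, 0 and 433 counts, or 18.7, 0 and 21.1 CPM. In 11 of the 17 libraries it had 5 counts or fewer, and the other 6 were Cre(−) replicate 1, Hif1α KO replicates 1, 3 and 4 and DKO replicates 1 and 3. KI replicate 2, with the highest Adipoq of all, had 1 count of Ucp1, and Hif1α KO replicate 2, with the second highest Adipoq, had 3. DKO replicates 1 and 3 and Cre(−) replicate 1, which led for Ucp1, were the third, the sixth and the fifth highest for Adipoq.

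Relative to Cre(−), the log2 fold change of Ucp1 in DKO kidneys was 3.08 (SE 1.34, edgeR adjusted p = 0.0603), and the groups overlapped since DKO replicate 2 had 0 counts. Without Cre(−) replicate 1 it was 6.48 (SE 1.61, adjusted p = 0.00346 by the same edgeR test), and without DKO replicate 2 it was 3.67 (SE 1.17, adjusted p = 0.0162 by edgeR). Only these 2 of the 17 fits without 1 library passed, with adjusted p from 0.00346 to 0.165 by edgeR over the 17. In Hif1α KO kidneys the log2 fold change of Ucp1 was 0.32 (SE 1.29, adjusted p = 0.844), and in Hif2α KO kidneys -3.81 (SE 1.96, adjusted p = 0.104), both by edgeR. Without Cre(−) replicate 1 these were 3.72 (SE 1.59, adjusted p = 0.0575) and -0.41 (SE 2.26, adjusted p = 0.888) by the same edgeR test. Cre(−) replicate 1 was the highest Cre(−) kidney for Ucp1 and DKO replicate 2 the lowest DKO kidney. Both were singled out after the levels were seen, so the p-values without either are a description. Between DKO and KI kidneys, a contrast given as a description, the log2 fold change of Ucp1 was 7.35 (SE 2.10). The summed counts of 816 and 4 gave a ratio of 182 after scaling for library size, carried by 2 of the 3 DKO kidneys.

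Cidea, on chromosome 18 from 67343604 to 67367785, encodes a droplet protein that brown adipocytes make in quantity. Without Cre it stood at 5.42, 0.214, 0.397 and 0.316 CPM, in the KI group at 3.10, 14.3 and 3.71 CPM and in the Hif1α KO group at 4.48, 4.31, 6.97 and 4.29 CPM. In Hif2α KO kidneys it had 1.73, 2.63 and 2.53 CPM, and in DKO kidneys 13.5, 3.37 and 24.1 CPM. All 13 kidneys with Cre, from 1.73 to 24.1 CPM, lay above Cre(−) replicates 2, 3 and 4, and Cre(−) replicate 1 was the 1 kidney of its group inside their range. Of the 13, 8 had 5 Ucp1 counts or fewer, and these had 1.73 to 14.3 CPM of Cidea.

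Cidea rose in DKO kidneys relative to Cre(−), with a log2 fold change of 3.14 (SE 0.88, edgeR adjusted p = 0.00629), and the call held in all 17 fits without 1 library, with log2 fold changes from 2.45 to 5.46. Among Hif1α KO kidneys the change was 1.70 (SE 0.84, adjusted p = 0.0911 by edgeR) on the log2 scale and among Hif2α KO kidneys 0.57 (SE 0.91, adjusted p = 0.608 by edgeR). Both depended on Cre(−) replicate 1, without which they were 4.01 (SE 0.78, adjusted p = 0.000518) and 2.89 (SE 0.82, adjusted p = 0.00757) by the same edgeR test. In each contrast this was the only 1 of the 17 fits without 1 library that passed. Cre(−) replicate 1 was the highest Cre(−) kidney for Cidea and was singled out after the levels were seen, so the p-values without it are a description. In KI kidneys, as a description, it was 2.18 (SE 0.88) with all libraries, 1.14 (SE 0.93) without KI replicate 2 and 3.46 (SE 0.68) without that library and Cre(−) replicate 1, a pair chosen after the levels were seen.

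**Figure D3:**
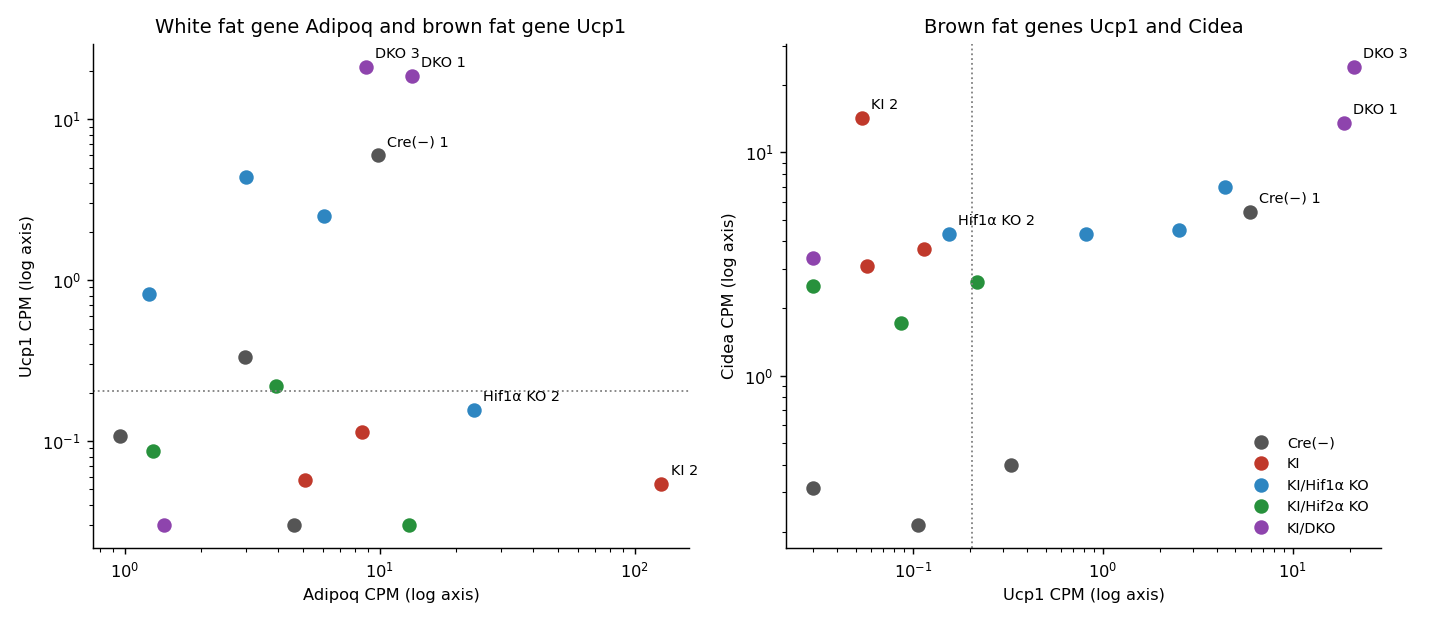
Left, CPM of Adipoq against CPM of Ucp1; right, CPM of Ucp1 against CPM of Cidea; both axes are logarithmic, each point is 1 of the 17 kidneys, the dotted line is 3 counts (0.206 CPM at most) of Ucp1, and libraries with 0 counts are drawn at the edge. KI replicate 2 has 127 CPM of Adipoq with 0.0539 CPM of Ucp1, DKO replicates 1 and 3 have 18.7 and 21.1 CPM of Ucp1 with 13.3 and 8.84 CPM of Adipoq, and 3 Cre(−) kidneys lie below all others for Cidea.

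Between KI and Cre(−) kidneys, 6 of the 10 genes (Adipoq, Cfd, Cidea, Cidec, Pparg and Retn, all higher in KI) passed the threshold of 0.05 on edgeR's adjusted p, which 60.9% of all genes tested did, and the contrast was among those used to choose the genes. The log2 fold changes of these were 3.37 (SE 1.19) for Adipoq, 4.55 (SE 1.51) for Cfd, 4.28 (SE 1.27) for Cidec, 3.62 (SE 1.15) for Retn and 2.21 (SE 0.55) for Pparg. Plin1 at 2.59 (SE 1.23), Fabp4 at 1.23 (SE 0.55), Lep at 0.44 (SE 1.06) and Ucp1 at -4.27 (SE 2.17) did not pass. The median of the 10 was 2.40, against 0.03 for all genes.

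Without KI replicate 2, none of the 10 genes passed, while 54.7% of all genes still did. Adipoq was then at 0.58 (SE 1.11), Retn at 0.56 (SE 1.01), Cidec at 1.36 (SE 1.12) and Cfd at 1.62 (SE 1.36) on the log2 scale. Plin1, at -0.66 (SE 1.24), Fabp4, at -0.37 (SE 0.35), and Lep, at -1.99, turned negative. The median of the 10 was 0.57. Without Cre(−) replicate 1 as well, 3 of the 10 (Cfd, Cidea and Pparg) passed, against 52.3% of all genes, with Cfd at 3.58 (SE 1.41) and Pparg at 1.44 (SE 0.47).

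In the 3 Hif knockout groups, which all express the fusion gene, the members seldom passed the threshold relative to Cre(−). Their median log2 fold changes were 0.78 in Hif1α KO, 0.60 in Hif2α KO and 1.17 in DKO kidneys. The median of all genes was 0.02 in each. In Hif1α KO kidneys 1 of 10, Lep, passed, against 61.9% of all genes, and without Cre(−) replicate 1 it was 2, with Cidea added, against 58.7%. In Hif2α KO kidneys 1 of 10, Pparg, passed against 61.9%, and without Cre(−) replicate 1 it was Pparg and Cidea against 59.2%. In DKO kidneys 1 of 10, Cidea, passed against 58.3%, and without Cre(−) replicate 1 it was Cidea and Ucp1 against 55.1%. The counts without Cre(−) replicate 1, the highest Cre(−) kidney for Cidea and Ucp1, leave out a kidney singled out after the levels were seen. The standard errors of Adipoq, Cfd, Plin1, Cidec and Retn in these contrasts were 1.10 to 1.41 on the log2 scale, each larger than a 2-fold change.

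**Figure D4:**
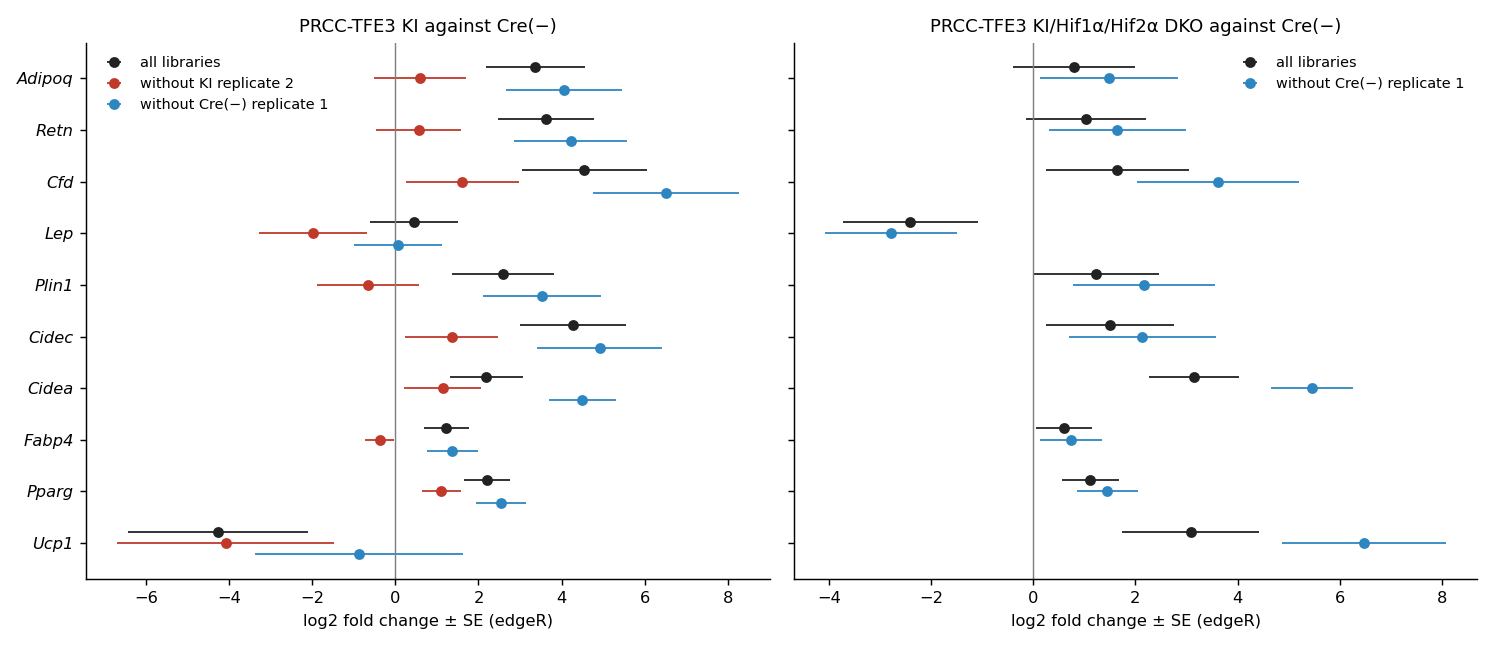
Log2 fold change with its standard error from edgeR for each gene, KI against Cre(−) on the left and DKO against Cre(−) on the right, with all libraries and without the libraries named in the legends. Without KI replicate 2 the KI values of Adipoq and Retn move from 3.37 and 3.62 to 0.58 and 0.56, and without Cre(−) replicate 1 the DKO values of Cidea and Ucp1 move from 3.14 and 3.08 to 5.46 and 6.48.

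Relative to KI kidneys, 0 of 10 genes passed in Hif1α KO kidneys, where 5.44% of all genes did, and 0 of 10 in Hif2α KO kidneys, where 1.39% did. In DKO kidneys 1 of 10, Ucp1 (higher), passed, against 12.7% of all genes. Leaving out any of the 3 KI kidneys, or DKO replicate 1 or 3, brought that count to 0. On the log2 scale Ucp1 in DKO kidneys was at 7.35 (SE 2.10) with KI replicate 2 and at 7.17 (SE 2.55) without it. The values of Adipoq, Cfd, Cidec, Plin1 and Retn in these contrasts, however, rest on KI replicate 2. With it, Adipoq was at -2.49 (SE 1.13) in Hif1α KO kidneys and at -2.58 (SE 1.26) in DKO kidneys on the log2 scale, whereas without it the values were 0.30 (SE 1.12) and 0.21 (SE 1.17). Without KI replicate 2 none of the 10 passed in any of the 3, and 2.09%, 0.509% and 8.67% of all genes did in Hif1α KO, Hif2α KO and DKO kidneys.

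Within a library, Cidec and Retn kept nearest to Adipoq. Per count of Adipoq, Cidec ranged from 0.697 to 3.09 counts and Retn from 0.137 to 0.781 over the 17 libraries, spans of 4.44 and 5.70 times. Plin1 spanned 14.6 times, with the lowest ratio in KI replicate 3, at 15 counts to 150 of Adipoq, and the next lowest, 0.332, in Hif1α KO replicate 2. Cfd spanned 12.0 times, from 0.911 in Cre(−) replicate 3 to 10.9 in KI replicate 3. It was at 6.60, 2.94, 0.911 and 2.12 in Cre(−) replicates 1 to 4 and between 4.43 and 10.9 in all 13 kidneys with Cre. Cre(−) replicate 1 thus lay inside the range of the kidneys with Cre. Cidea spanned 50.2 times, and Fabp4 and Pparg 20.3 and 19.9 times. In log2 CPM the Pearson correlation with Adipoq over the 17 libraries was 0.96 for Cidec, 0.93 for Retn and Cfd, 0.89 for Plin1, 0.80 for Fabp4, 0.68 for Pparg, 0.55 for Cidea, 0.50 for Lep and 0.10 for Ucp1. Over the 16 libraries without KI replicate 2 it was 0.94 for Cidec, 0.89 for Cfd, 0.87 for Retn, 0.82 for Plin1, 0.62 for Fabp4, 0.48 for Cidea, 0.43 for Pparg, 0.30 for Ucp1 and 0.21 for Lep. These describe 17 libraries of 5 groups and share 1 library of extreme level.

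**Figure D5:**
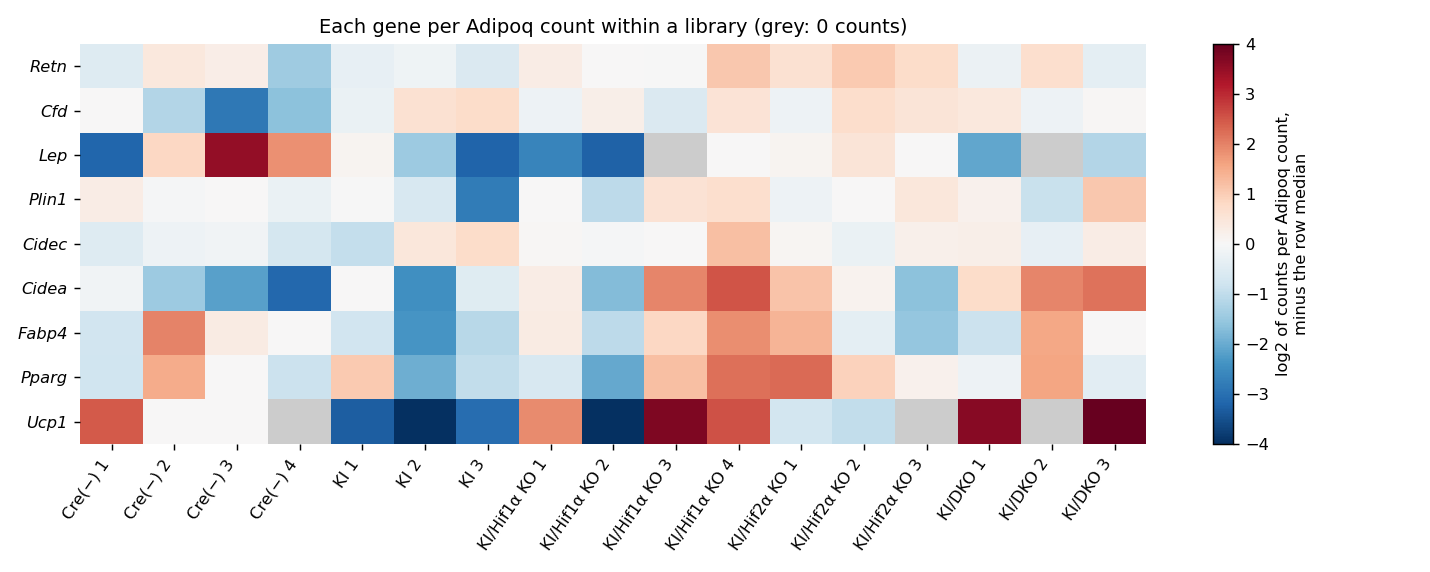
Counts of each gene per count of Adipoq within each library, as log2 minus the median of the row; red is above and blue below the median, and grey marks libraries with 0 counts. The rows of Retn and Cidec are pale throughout, Plin1 is low in KI replicate 3 with 15 counts to 150 of Adipoq, and Ucp1 is high in Cre(−) replicate 1, Hif1α KO replicates 1, 3 and 4 and DKO replicates 1 and 3.

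Of the genes that are no members, the 10 with the highest correlation with Adipoq over 17 libraries were Acvr1c (r = 0.91), Mrap (0.91), Serpina3c (0.91), Adig (0.90), Arxes2 (0.88), Car3 (0.86), A530016L24Rik (0.86), Abcd2 (0.84), Hp (0.84) and Ebf3 (0.83). Adig encodes adipogenin, Acvr1c the activin receptor ALK7 and Car3 the carbonic anhydrase of fat and muscle. Car3 had 845 CPM in KI replicate 2 and at most 155 CPM in the other 16 libraries, and Acvr1c 13.2 CPM against at most 1.40 CPM. Without KI replicate 2 the 5 highest were Mrap (r = 0.87), Acvr1c (0.85), Serpina3c (0.83), Adig (0.82) and Msl3l2 (0.78), so 4 of the 5 were also among the 10.

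A list of 9 other genes that are enriched in fat held different patterns. Of these, 7 (Adig, Adrb3, Acvr1c, Car3, Plin4, Trarg1 and Lipe) were highest in KI replicate 2, Thrsp was highest in DKO replicate 1 and Slc2a4 in Cre(−) replicate 4. Adrb3, the β3 adrenergic receptor of fat, had 23.3 CPM in KI replicate 2 and 0.265 to 5.04 CPM elsewhere. Plin4, a droplet coat protein that was also high in kidneys with low Adipoq, stood at 8.74 to 12.0 CPM in Cre(−) kidneys and at 91.2 to 371 CPM in all 13 kidneys with Cre. Plin4 rose by 12.6-fold in DKO kidneys relative to Cre(−) (edgeR adjusted p = 1.24e-09), and Slc2a4, the insulin-responsive glucose transporter GLUT4, fell (log2 fold change -1.50, adjusted p = 0.000143 by the same edgeR test). In each of the Hif1α KO, Hif2α KO and DKO contrasts with Cre(−), 1 of the 9 rose and 1 fell, against 4 and 1 in KI kidneys. Of all genes, 61.9%, 61.9% and 58.3% passed in the 3 knockout contrasts and 60.9% in KI kidneys. The median log2 fold change of the 9 was 3.04 in KI kidneys and 0.81 in DKO kidneys, against 0.03 and 0.02 for all genes. In the fit that leaves out KI replicate 2, the KI median was -0.43, 1 of the 9 (Plin4) rose and 2 (Trarg1 and Slc2a4) fell in KI kidneys, and Lipe was added to the genes that rose in Hif1α KO kidneys. In that fit 54.7% of all genes passed in KI kidneys.

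Of 12 other genes linked to brown and beige fat, 11 passed the filter. Elovl3 and Otop1 were at or near 0 in most libraries. Otop1 had 12 counts in Cre(−) replicate 1, 11 and 19 in DKO replicates 1 and 3, and at most 2 in the other 14. Elovl3, a fatty acid elongase induced in brown fat by cold, had 20 and 15 counts in DKO replicates 1 and 3, 19 in KI replicate 2, 8 and 7 in Hif1α KO replicates 1 and 4 and at most 2 elsewhere. Dio2, the deiodinase that activates thyroid hormone in brown fat, rose in DKO kidneys relative to Cre(−) (log2 fold change 3.25, SE 0.44, adjusted p = 1.34e-05 by edgeR), with 112 counts in DKO replicate 2, which had no Ucp1. Fabp3 and Ppargc1a fell in DKO kidneys (log2 fold changes -2.01 and -1.01). In that contrast 4 of the 11 rose and 5 fell, against 58.3% of all genes passing. Between KI and Cre(−), 3 rose and 5 fell, against 60.9% of all genes. Of the genes that passed there, Elovl3 did not pass when KI replicate 2 was left out. Fabp3 stood at 6.14 to 10.1 CPM in KI and at 55.5 to 88.7 CPM in Cre(−) kidneys. Ppargc1a stood at 83.9 to 96.4 CPM in KI and at 149 to 183 CPM in Cre(−) kidneys. Cre(−) replicates 2, 3 and 4, with 2, 5 and 0 counts of Ucp1, held 55.5, 79.9 and 88.7 CPM of Fabp3 and 174, 183 and 149 CPM of Ppargc1a. The part of kidney tubule cells in these levels was not tested. Dio2 had 0.342 to 1.72 CPM in KI and 0.642 to 0.861 CPM in Cre(−) kidneys. It had 1.25 to 2.93 CPM in Hif1α KO, 3.46 to 5.26 CPM in Hif2α KO and 4.68 to 11.1 CPM in DKO kidneys. In the fit without KI replicate 2, Dio2 also passed as higher in Hif1α KO and Hif2α KO kidneys relative to Cre(−), so its rise was not particular to DKO kidneys.

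Genes that act with the members were also read from a fixed list. Of 19 such genes, 8 rose and 5 fell in Hif1α KO kidneys, 7 rose and 8 fell in Hif2α KO kidneys and 6 rose and 6 fell in DKO kidneys, all relative to Cre(−). Of all genes, 61.9%, 61.9% and 58.3% passed in these 3 contrasts. In KI kidneys, in which no Hif gene was deleted, 10 rose and 8 fell, against 60.9% of all genes. C3, the complement protein on which the convertase activated by adipsin acts, had 44.8 to 73.4 CPM in Cre(−) kidneys and 742 to 2115 CPM in kidneys with Cre, a log2 fold change of 3.83 (SE 0.29, adjusted p = 5.86e-08 by edgeR) in DKO kidneys. Cfb, the factor B that adipsin cleaves, went the other way, from 326 to 360 CPM in Cre(−) kidneys to 71.3 to 135 CPM with Cre. Ucp2 and Ucp3, the relatives of Ucp1, rose in DKO kidneys by 1.77 (SE 0.16, adjusted p = 4.22e-07 by edgeR) and 3.07 (SE 0.43, adjusted p = 2.10e-05 by edgeR) on the log2 scale. KI kidneys had 204 to 366 CPM of Ucp2, against 96.8 to 126 CPM in Cre(−) kidneys. Ucp3 stood at 3.82 to 5.28 CPM in KI and at 0.161 to 1.14 CPM in Cre(−) kidneys. Ucp2 had 447 to 535 CPM in Hif1α KO, 330 to 432 CPM in Hif2α KO and 351 to 398 CPM in DKO kidneys. When KI replicate 2 was left out, Ucp2 and Ucp3 passed as higher in KI kidneys and in all 3 knockout groups relative to Cre(−), so their rise was not particular to DKO kidneys. The droplet protein genes Plin2 and Plin3 rose in all 3 knockout groups, by 0.53 to 1.40 and by 1.15 to 1.53 on the log2 scale, and Cideb, a relative of Cidea and Cidec, fell in all 3 (log2 fold changes from -2.28 to -2.16). The adiponectin receptors Adipor1 and Adipor2 did not pass in any of the 3, with log2 fold changes between -0.29 and 0.04. When KI replicate 2 was left out, Adipor2 passed as lower in Hif2α KO and DKO kidneys. Rxra, the partner with which PPARγ binds DNA, fell in all 3 knockout groups (log2 fold changes from -0.66 to -0.52). In KI kidneys without replicate 2, Plin2 and Plin3 also passed as higher and Cideb and Rxra as lower relative to Cre(−). Adipor1 passed as higher and Adipor2 as lower in that same comparison.

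Markers of other tissues next to the kidney were measured in the same libraries. Of 9 adrenal genes 3 were at or under 3 counts in every library, among them Cyp11b1 and Dbh, and Cyp11b2 was at 0 in all. The 9 summed to 8.08 to 14.3 CPM, with 13.4 CPM in KI replicate 2. Cyp21a1, the steroid 21-hydroxylase, which has a near-identical pseudogene, had 1, 0, 0 and 0 counts in Cre(−) kidneys and 6 to 55 in all 13 with Cre, and passed in each contrast with Cre(−) (DKO adjusted p = 0.000605 by edgeR). Hsd3b1, a steroid dehydrogenase, had 75 counts in KI replicate 3 and at most 9 elsewhere. The sum of 4 mesothelial genes came to 11.3 to 16.0 CPM in Cre(−) kidneys, 21.9 to 70.4 CPM in KI, 18.9 to 50.9 CPM in Hif1α KO, 29.2 to 84.3 CPM in Hif2α KO and 17.6 to 53.2 CPM in DKO kidneys, highest in Hif2α KO replicate 3 and then KI replicate 2. That of 5 lymphocyte genes came to 5.24 to 8.21 CPM in Cre(−) kidneys and to 4.56 to 65.5 CPM in kidneys with Cre, with the highest sum in KI replicate 2 and the lowest in KI replicate 3. That of 5 macrophage genes came to 154 to 207 CPM in Cre(−) kidneys and to 918 to 1699 CPM in kidneys with Cre, with 1569, 1699 and 1675 CPM in the 3 KI kidneys. None of the mesothelial, lymphocyte or macrophage genes was at or under 3 counts in every library. Their part in the levels of the adipocyte genes was not tested.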

How the data were processed

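Kidney RNA of 17 mice was sequenced from stranded mRNA libraries with single-end reads on a NextSeq 500. The methods name Trim Galore 0.6.6 with cutadapt 2.5, STAR 2.7.9a and RSEM, a human genome for alignment and an annotation of either the human or the mouse build, and the files list mouse transcripts. The authors deposited expected counts, which are estimates per transcript and not normalized between libraries, and TPM, normalized for transcript length and library total. Of 119353 transcripts, 116770 (97.8%) matched GENCODE M21 (GRCm38) by identifier without version. Counts were summed per gene and rounded. edgeR 4.0.16 (R 4.3.3) fitted all 17 libraries with TMM factors, filterByExpr (minimum count 10) and 1 coefficient per group, and adjusted p-values by Benjamini-Hochberg over 17011 genes (threshold 0.05). Group spread may be technical or between mice, since each library is labelled as a separate mouse sample without further detail. Alternatives were DESeq2 1.42.0, its size factors, no filter, only 2 groups, the replicate number as a block, limma 3.58.1 on log2(TPM + 1) and log2(TPM + 0.1), a fat score (mean z-score of 9 other fat genes) as covariate, and each library left out. The fits were tested on simulated data.

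The 10 genes, the gene lists and the tests were chosen with earlier results of these data known. Genes beyond the 10 were named from the lists or by their correlation with Adipoq (log2 CPM, prior count 2). Ccl21a, whose symbol 2 gene identifiers share, was left out of the lymphocyte list. Replicate numbers did not pair the libraries: of 31 pairs with the same number, deviations from the group means correlated above 0.1 in 4.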

Additional observations from a re-analysis of the deposited data

Results flagged for a closer look

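Dixon's rule was applied to CPM, without logs, in the groups of 4 kidneys. Its critical value assumes normally distributed data, and several of these genes rise together within a library. The number of flags is therefore not set against a chance rate. In 7 of 20 gene and group pairs, 1 kidney was set apart by more of the range than the critical value at 95% allows. In the Cre(−) group all flagged values were the highest value of replicate 1, namely Cfd at 65.1 CPM, Cidea at 5.42 CPM, Pparg at 5.00 CPM and Ucp1 at 5.96 CPM. In the Hif1α KO group replicate 2 was set apart for Cfd at 183 CPM and Cidec at 30.8 CPM, and replicate 3 for Cidea at 6.97 CPM. Groups of 3, and with them KI replicate 2, were not covered by this rule.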

How the results depend on the processing

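Of 70 log2 fold changes (10 genes in 7 contrasts), 32 changed sign under at least 1 alternative. Among the 40 in contrasts that use KI kidneys 22 did, 21 of them without KI replicate 2. Among the 30 in contrasts of a knockout group with Cre(−) 10 did, in 22 fits, none of which passed the threshold, and the cause was not tested. With the fat score as covariate, Adipoq was at -0.25 and Plin1 at -0.50 in Hif1α KO kidneys and Adipoq at -0.065 in DKO kidneys. With a narrower score of Adig, Adrb3, Acvr1c and Car3, chosen after the data were seen, Adipoq was at -0.079, -0.41 and -0.23 in Hif1α KO, Hif2α KO and DKO kidneys, and Plin1 at -0.16 and -0.30 in the first and the second. On log2(TPM + 1) and log2(TPM + 0.1), limma put Fabp4 in Hif2α KO kidneys at 0.22 and 0.23. With 1 library left out, Hif1α KO values ranged from -0.0005 to 3.58 for Cfd, from -0.45 to 1.57 for Adipoq, from -0.26 to 1.21 for Plin1 and from -0.46 to 3.72 for Ucp1, and Hif2α KO values from -0.79 to 1.10 for Adipoq, from -0.96 to 1.57 for Plin1, from -0.48 to 1.64 for Cidec and from -1.87 to 0.054 for Lep.

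The count of the 10 genes past the threshold moved as follows. With the replicate number as a block, which does not pair these mice, the count was 1 for KI, 0 for Hif1α KO and 0 for Hif2α KO kidneys relative to Cre(−). Of all genes, 58%, 60.1% and 59.2% passed there. With the fat score as covariate the count was 4 for KI (Cfd, Cidec and Pparg higher and Ucp1 lower), 2 for Hif1α KO, 3 for Hif2α KO and 3 for DKO. Of all genes, 57.6%, 60.2%, 61.6% and 56.8% passed. With the narrower score the count was 3 for KI, 2 for Hif1α KO, 2 for Hif2α KO and 2 for DKO, against 55.8%, 60.8%, 60.7% and 56.1% of all genes. Without KI replicate 2 and Cre(−) replicate 1 together, also chosen after the data were seen, the count was 3 for KI, 5 for Hif1α KO, 3 for Hif2α KO and 5 for DKO relative to Cre(−). Of all genes, 52.3%, 58.2%, 58.4% and 54.3% passed. Relative to KI the count was 0 for DKO, against 7.43%. DESeq2 called 2 genes in Hif1α KO relative to KI, and 6.12% of all genes. The counts that follow are not set against the share of all genes. A fit of only the 2 groups called 2 in DKO relative to Cre(−) and 0 relative to KI, where 8 of the 10 genes, without Ucp1, passed the filter on low counts. On log2(TPM + 1) limma called 3 in DKO relative to Cre(−) and 0 relative to KI, and on log2(TPM + 0.1) it called 2 in Hif2α KO and 2 in DKO relative to Cre(−) and 0 in DKO relative to KI. With each library left out in turn, the count ranged from 0 (KI replicate 2) to 8 for KI, from 0 to 2 for Hif1α KO, from 0 to 2 for Hif2α KO and from 1 to 2 for DKO relative to Cre(−), and from 0 to 1 for both Hif1α KO and DKO relative to KI.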

Other observations

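Of 11 fat genes that kidney tubules also make, 7 fell and 2 rose in each of the KI, Hif2α KO and DKO contrasts with Cre(−). In Hif1α KO kidneys 8 fell and 2 rose. Of all genes, 60.9%, 61.9% and 58.3% passed in the first 3 contrasts and 61.9% in Hif1α KO kidneys. The 11 genes summed to 3111 to 4073 CPM in Cre(−) kidneys and to 860 to 1720 CPM in kidneys with Cre. KI replicate 2, with 1720 CPM, was the highest of the 13 kidneys with Cre in this sum. Cd36, a fatty acid transporter, and Scd1, the stearoyl-CoA desaturase, fell in DKO kidneys by 2.35 and by 1.59 on the log2 scale (adjusted p = 0.00210 and 0.000235 by edgeR). Fabp5, a fatty acid carrier of epithelia, rose (log2 fold change 3.15, adjusted p = 3.37e-08 by edgeR). KI kidneys had 10.1 to 90.4 CPM of Cd36 and 182 to 334 CPM of Scd1. Cre(−) kidneys had 151 to 232 and 931 to 1468 CPM. Fabp5 stood at 95.3 to 148 CPM in KI and at 8.01 to 9.87 CPM in Cre(−) kidneys.

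The sum of 6 genes of adipose progenitors and other stromal cells came to 454 to 512 CPM in Cre(−) kidneys and to 491 to 622 CPM in kidneys with Cre. KI replicate 2, at 513 CPM, was the lowest of the 3 KI kidneys there. That of 5 skeletal muscle genes came to 1.79 to 4.38 CPM over all libraries, with Myh4 at 1 count or fewer in each.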
